A study of Mus musculus with 28 samples.

Results

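The genes described here encode the proteins of the cytosolic ribosome. They were chosen by their deposited symbols: Rpl or Rps followed by a number (with a trailing a, x or a1 where the symbol has one), together with Rplp0, Rplp1, Rplp2 and Rpsa, and without the rows named as their pseudogenes (symbols ending in -ps and a number). The rule itself reads no measured value, but the set was proposed with earlier results of these data known. The rule found 77 of the 54429 identifiers in the count table, of which 31 encode proteins of the small subunit and 46 proteins of the large subunit, the latter including the 3 acidic proteins of the stalk.

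Expression was measured by RNA sequencing of polyadenylated RNA from the mouse line O9-1, which was established from cranial neural crest, embryonic cells that go on to form bone, cartilage and other tissues of the head. The labels give the same line for all 28 libraries, and no genotype or gene manipulation for any group. Per the labels, proliferating cells were kept in DMEM conditioned by STO feeder cells with 15% FCS, 25 ng/ml bFGF and 5 ng/ml LIF. Osteoblast cultures had 10 days in a medium with 10% FCS, 100 ng/ml BMP-2, 10 mM beta-glycerophosphate and 0.1 µM dexamethasone. Chondrocyte cultures had 3 days in that osteoblast medium and then 7 days as micromasses with 5% FCS, 50 ng/ml BMP-2, 10 ng/ml TGF-beta3 and 0.1 µM dexamethasone, and smooth muscle cultures had 3 days in DMEM with 10% FCS. Each of the 4 conditions was run at 21% O2 (normoxic, 4 libraries) and at 0.5% O2 (hypoxic, 3 libraries). The labels do not say whether the libraries of a group came from separate cultures, so the p-values measure only the spread between these libraries. In bulk samples such as these, a change in the mix of cells and a change in RNA per cell cannot be told apart.

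The cytosolic ribosome translates nuclear-encoded messages, and its proteins are made in near-equal numbers and built onto ribosomal RNA in the nucleolus. Their messages are short, abundant and long-lived, and in vertebrates they begin with a run of pyrimidines, the 5′ TOP motif, through which mTOR signalling and the RNA-binding protein LARP1 control their translation. Many of the genes also carry small nucleolar RNAs in their introns, which guide the modification of ribosomal RNA. Dosage of these proteins matters in the neural crest: loss of a copy of several of them is known for Diamond-Blackfan anaemia, in which craniofacial malformations occur.

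The 77 genes lie on 19 chromosomes of GRCm38 (mm10, GENCODE vM21 annotation). The median length of their main transcript was 774 bases (345 to 5130), against 2427 bases over the 21852 coding genes in the table, and the median coding length was 456 bases. Small nucleolar or Cajal body RNA genes lie inside 30 of the 77 (39.0%), 58 such genes in all, against 1.25% of all coding genes. The annotated start site of 57 of the 77 was found in the RefSeq table of promoters (GRCm38.p6). A C followed by at least 5 pyrimidines (C or T), read on the strand of the gene, with its first base within 10 bases of the annotated start, was present in 28 of the 57 (49.1%) and in 19.2% of all genes in that table.

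The stretches below run from 30 bases before to 30 bases from the annotated start and are shown because these members mark the range of behaviour in the results. Capitals mark the pyrimidine tract found by that search, and a sequence with no capitals had no match in the window.
Rps6, chr4:86857338-86857397, minus strand: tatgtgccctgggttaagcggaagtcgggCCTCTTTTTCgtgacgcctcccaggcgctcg
Rpl13a, chr7:45128716-45128775, minus strand: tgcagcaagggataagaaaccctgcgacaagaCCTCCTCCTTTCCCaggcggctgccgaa
Rpl14, chr9:120571487-120571546, plus strand: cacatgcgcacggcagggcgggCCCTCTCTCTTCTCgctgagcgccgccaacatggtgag
Rps27, chr3:90213619-90213678, minus strand: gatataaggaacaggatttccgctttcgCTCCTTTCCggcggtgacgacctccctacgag
Rps10, chr17:27635215-27635274, minus strand: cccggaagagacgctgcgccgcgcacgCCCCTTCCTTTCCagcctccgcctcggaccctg
Rpl22, chr4:152325696-152325755, plus strand: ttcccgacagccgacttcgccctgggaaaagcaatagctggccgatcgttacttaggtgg
Rplp0, chr5:115559437-115559496, plus strand: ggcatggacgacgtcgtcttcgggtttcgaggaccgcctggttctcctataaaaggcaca
Rps6, Rpl13a, Rpl14, Rps27 and Rps10 have a tract at the annotated start, and Rpl22 and Rplp0 have none in this window. A match says only that these letters are there, since the start sites used by these cells were not measured.

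Library totals lay between 19.9 and 64.7 M counts (M, 1000000). The 3 hypoxic smooth muscle libraries stood apart: mitochondrial ribosomal RNA took 11.6% to 13.3% of their counts and at most 0.0889% in any other library, and their summed smooth muscle markers (Acta2, Tagln, Cnn1, Myh11, Smtn and Des) lay between 94.8 and 119 counts per 1000000 (CPM), against 3531 to 3991 CPM in the normoxic smooth muscle libraries. The hypoxic libraries went against their label in these markers, and they are called the libraries labelled hypoxic smooth muscle, or hypoxic smooth muscle in short. Normoxic osteoblast library 4 also stood apart, with an SD of 0.506 (log2) from the mean of the other libraries of its group over 10548 genes, where the other 3 gave 0.198 to 0.209. In the other normoxic groups library 4 was again the most distant, by less. It gave 0.26 in proliferating, 0.27 in chondrocyte and 0.21 in smooth muscle cultures, where the next library gave 0.15, 0.25 and 0.15. All 77 members passed the filter on low counts, and levels below are CPM scaled by the trimmed mean of M values (TMM).

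The 77 genes took a share of the counts that was largest in hypoxic smooth muscle cultures, lower in proliferating cells and lowest in normoxic osteoblast cultures. In normoxic proliferating cells they took 5.83%, 6.09%, 6.03% and 6.74% of the counts of the 4 libraries, and in hypoxic proliferating cells 6.20%, 6.09% and 6.40%. In normoxic chondrocyte cultures the shares were 4.00%, 3.73%, 3.59% and 4.30%, and in hypoxic ones 4.45%, 3.66% and 3.93%. In both conditions the ranges at the 2 oxygen levels overlapped.
In normoxic osteoblast cultures the shares were 2.56%, 2.45%, 2.52% and 2.65%, and in hypoxic ones 3.45%, 3.70% and 4.24%, with no overlap. Normoxic smooth muscle cultures gave 4.17%, 3.73%, 4.14% and 4.27%, and hypoxic ones 22.2%, 23.3% and 23.0%. The group means were 6.17% ± 0.39 (SD, n = 4) and 6.23% ± 0.16 (n = 3) in proliferating, 3.90% ± 0.31 and 4.01% ± 0.40 in chondrocyte, 2.55% ± 0.08 and 3.80% ± 0.40 in osteoblast, and 4.08% ± 0.24 and 22.9% ± 0.60 in smooth muscle cultures, normoxic before hypoxic.

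**Figure D1:**
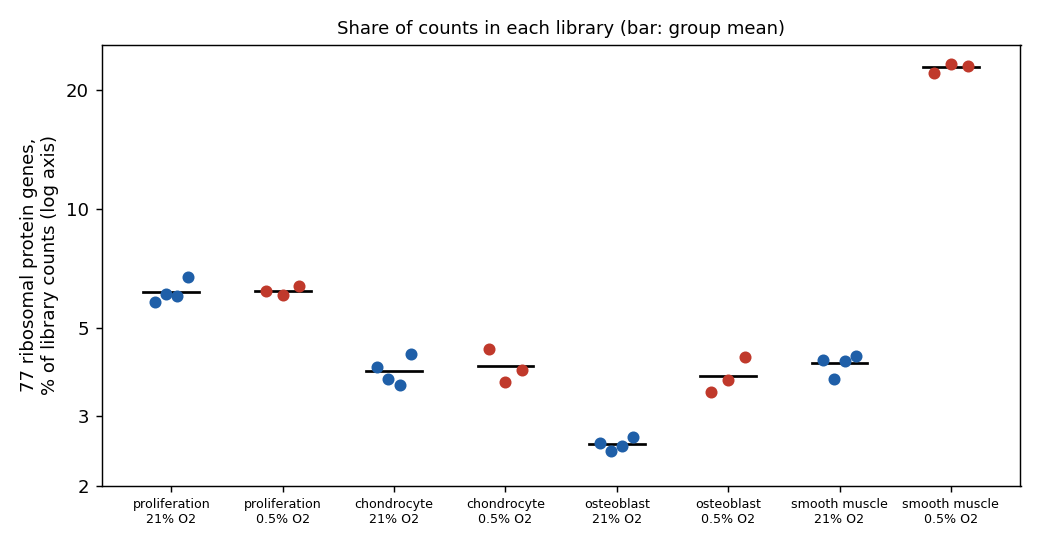
Percent of each library's counts taken by the 77 ribosomal protein genes (y axis, log scale) in the 8 groups (x axis). Points are libraries, blue at 21% O2 and red at 0.5% O2, and bars are group means; the normoxic osteoblast libraries lie lowest (2.45% to 2.65%) and the hypoxic smooth muscle libraries highest (22.2% to 23.3%).

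The plot of shares shows 3 levels below the hypoxic smooth muscle libraries: both proliferating groups on top, then both chondrocyte groups, normoxic smooth muscle and hypoxic osteoblast cultures within each other's range, and normoxic osteoblast cultures at the bottom. In TMM-scaled group means most members kept the top and bottom of this order but not its middle, where normoxic smooth muscle cultures had rank 2 from the lowest for 60 of the 77. Normoxic osteoblast cultures had the lowest mean of the 8 groups for 73 of the 77, and the hypoxic smooth muscle cultures had the highest mean for all 77.

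Levels between members were compared per kilobase of their main transcript, since longer messages give more counts. In normoxic proliferating cells the median member stood at 741 CPM per kb. Averaged over the 7 group means other than hypoxic smooth muscle, Rpl41, whose product is the smallest ribosomal protein, stood highest at 2065 CPM per kb, followed by Rplp0, the stalk protein that anchors Rplp1 and Rplp2, at 1754 CPM per kb, and by Rplp1 at 1370 CPM per kb. At the other end were Rps15a at 55.4, Rps10 at 2.62 and Rpl24 at 0.374 CPM per kb; Rps15a is named after its value was seen. With hypoxic smooth muscle included Rpl41 and Rplp0 again stood highest, and Rplp1 took rank 13. Rps15a was assigned the longest transcript of the set (5130 bases), which lowers its level per kilobase.

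The lowest values are doubtful as measures of expression. Rpl24 had between 0 and 48 counts in a library and shares 47.0% of its exon bases with another gene on the same strand. Rps10 shares 20.55% of its exon bases with another gene on the same strand. It had 33 to 993 counts, while the 4 rows named as its pseudogenes together had 1811 to 23448 counts in the same libraries. Over all libraries, the counts of the pseudogene rows came to 4285% of those of Rps10 itself, for Rpl34 to 198%, for Rpl17 to 151% and for Rpl21 to 92.5%. For Rpl3 they came to 47.5% and for Rpl14 to 42.7%. How the counting divided reads between these copies was not tested, so values of Rps10, Rpl34, Rpl17, Rpl21 and Rpl24 are uncertain throughout. Rpl3 and Rpl14 share this doubt. Those of Rps10 and Rpl17 are also given with their pseudogene rows added.

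Most members moved together from library to library. Relative to the median member of the same library, the coefficient of variation between libraries of a group, averaged over the 8 groups, had a median of 5.28% over the 77 members, and 70 members stayed below 10%. It exceeded 20% for 5 members: Rpl24 (60.0%), Rpl17 (37.5%), Rps27a (31.2%), Rpl7a (22.4%) and Rps10 (22.0%). Rps27a, which is made as a fusion with ubiquitin, stood at 228, 327 and 595 CPM in the 3 hypoxic proliferating libraries. Rpl17 stood at 480, 288 and 124 CPM in the same libraries, and at 744, 602 and 719 CPM with its pseudogene rows added.

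The balance of the summed levels of the subunits also differed between groups, although such sums weigh abundant members most. The summed CPM of the large subunit divided by that of the small subunit was 1.43, 1.43, 1.40 and 1.41 in normoxic proliferating cells and 1.64, 1.62, 1.64 and 1.63 in normoxic osteoblast cultures. It was 1.52, 1.53, 1.51 and 1.53 in normoxic smooth muscle and 1.54, 1.54 and 1.49 in hypoxic osteoblast cultures. The other groups lay between 1.41 and 1.49. The ranges of normoxic proliferating, smooth muscle and osteoblast cultures did not overlap. Gene by gene the subunits differed little. In normoxic osteoblast against proliferating cultures the median log2 fold change was -1.19 for large subunit members outside the stalk and -1.25 for small subunit members. In normoxic smooth muscle cultures these medians were -0.73 and -0.75.

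Most members were called lower in each normoxic differentiation than in proliferating cells. Each gene was tested with edgeR's quasi-likelihood test in a single fit of the 28 libraries, and called at a Benjamini-Hochberg adjusted p below 0.05 over the 16540 genes tested. In chondrocyte cultures 64 of the 77 members were called lower and 0 higher than in proliferating cells, with a median log2 fold change of -0.40. Of all genes tested, 34.9% were called lower and 32.6% higher in that comparison, and their median was -0.04. Of the 64, 59 had no overlap between the libraries of the 2 groups, where 32.1% of all genes were called lower without overlap.
The fall was larger in osteoblast cultures, where 75 members were called lower and 1 higher with a median of -1.23 (2.34-fold lower). The background there was 35.8% of genes called lower and 37.8% called higher. In smooth muscle cultures 73 members were called lower and 0 higher, with a median of -0.74, beside 35.4% of genes called lower and 35.1% called higher. The 3 comparisons share the same 4 proliferating libraries, so they are not independent of each other. The order of chondrocyte and smooth muscle cultures depends on the scaling: relative to proliferation the share of counts was 0.632 in chondrocyte and 0.661 in smooth muscle cultures, whereas the ratio of summed TMM-scaled CPM was 0.765 and 0.603. Of the members, 62 were called lower in all 3 comparisons, beside 24.1% of all genes, and those that were not included Rplp0, Rplp1, Rpl10, Rpl39, Rpl41 and Rps27.
Other abundant coding genes of like length also fell. Among the 60 others of 501 to 1000 bases that reached 100 CPM in normoxic proliferating cells, the median was -0.49 in chondrocyte, -0.96 in osteoblast and -0.64 in smooth muscle cultures, beside -0.40, -1.23 and -0.74 for the members. A choice by level in the proliferating libraries favours genes that are lower elsewhere.

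**Figure D2:**
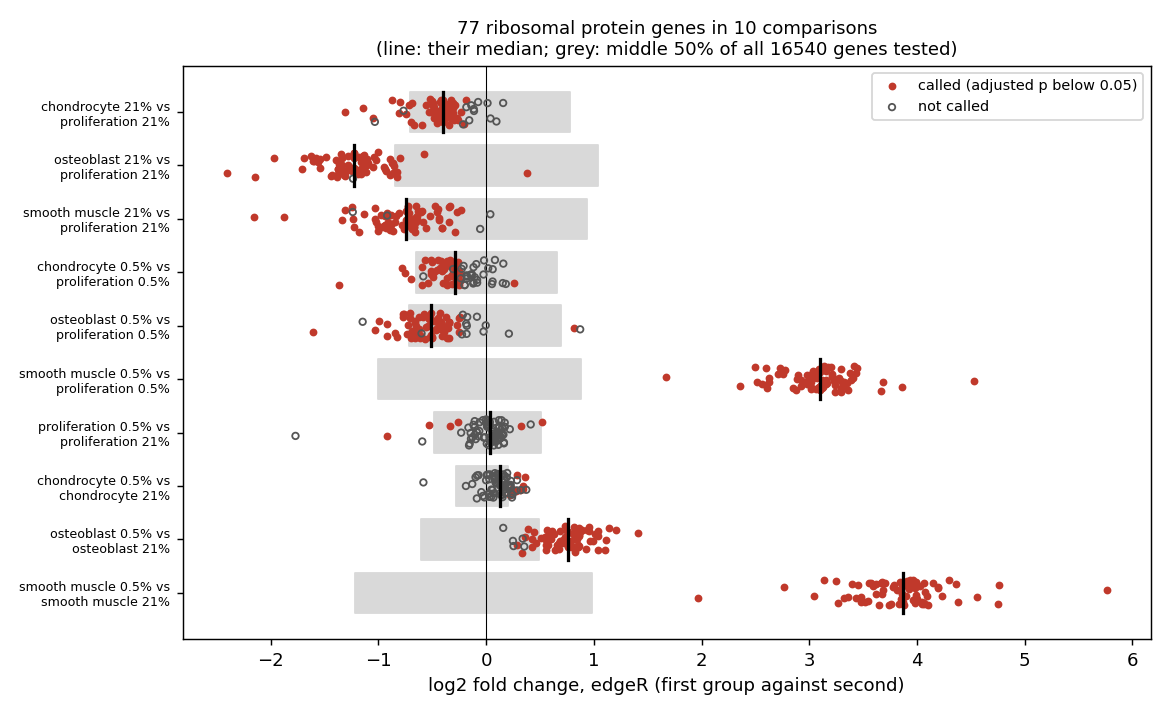
Log2 fold change (x axis, edgeR) of each of the 77 ribosomal protein genes in the 10 pairwise comparisons (rows, first group against second). Points are genes, filled where called at an adjusted p below 0.05, the black line is their median, and the grey band spans the middle 50% of all 16540 genes tested; medians run from -1.23 in normoxic osteoblast against proliferating cultures to 3.87 in hypoxic against normoxic smooth muscle cultures.

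Rps6, the protein of the small subunit that S6 kinase phosphorylates downstream of mTOR, followed the common pattern. It stood at 742, 810, 824 and 871 CPM in normoxic proliferating cells, at 502, 588, 586 and 737 CPM in chondrocyte cultures, and at 309, 294, 301 and 303 CPM in osteoblast cultures. The 3 ranges did not overlap. The fall in osteoblast cultures was -1.43 ± 0.09 (log2 fold change ± SE, n = 4 and 4, adjusted p = 8.86e-15 in edgeR), or 2.69-fold.
Members with other known roles fell alike in osteoblast cultures. Rpl5 and Rpl11, which carry 5S ribosomal RNA into the ribosome and can bind the p53 regulator Mdm2, fell by 1.39 and 1.13 on the log2 scale. Rpsa, also known as a laminin receptor, fell by 1.63, and Rps19, the gene most often affected in Diamond-Blackfan anaemia, by 1.58. All 4 were called.

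The largest called falls with separate libraries included members with uncertain counts. Rps27a and Rpl17 fell most in osteoblast cultures (-2.41 ± 0.38 and -2.14 ± 0.48, adjusted p = 6.29e-06 and 0.000442 in edgeR), and both varied strongly between libraries of a group. With its pseudogene rows added, Rpl17 gave -1.09 ± 0.12, close to the other members. Rps10 and Rpl7a fell most in chondrocyte cultures (-1.31 ± 0.19 and -1.15 ± 0.26, adjusted p = 5.69e-07 and 0.000414 in edgeR). With its pseudogene rows added, Rps10 gave -0.33 there, and in smooth muscle cultures -0.84 in place of -2.16. Rps27a was second there, with a fall of 1.88 on the log2 scale.

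Some members did not pass the test in particular media. Rplp1, a stalk protein through which elongation factors are recruited, stood at 745, 818, 726 and 824 CPM in normoxic proliferating cells and at 804, 903, 808 and 958 CPM in chondrocyte cultures, with overlapping ranges and a log2 fold change of 0.16 ± 0.08 (adjusted p = 0.0756 in edgeR). Without the 4 normoxic libraries numbered 4, an alternative chosen after seeing the data, it was 0.20 and called (adjusted p = 0.0214 in edgeR), and with library totals alone its sign turned (-0.12). In osteoblast cultures it stood at 361, 333, 343 and 376 CPM, a fall of 1.14 on the log2 scale. Rplp0 gave 0.04 in chondrocyte and -0.87 in osteoblast cultures.
Rps27, a zinc-finger protein of the small subunit, stood at 226, 285, 264 and 324 CPM in proliferating cells and at 302, 245, 324 and 258 CPM in smooth muscle cultures, again overlapping, with a log2 fold change of 0.04 ± 0.16. Rpl10, which joins the large subunit last, gave -0.06 in smooth muscle cultures and was not called there. Its fall in osteoblast cultures, -0.58, was the smallest of the 75 called.

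Rpl14 was the only member called higher in osteoblast cultures, at both oxygen levels. It stood at 467, 527, 490 and 505 CPM in normoxic proliferating cells and at 719, 706, 756 and 401 CPM in normoxic osteoblast cultures. Library 4, the one that stood apart, lay below all proliferating libraries, and the others lay above them. The log2 fold change was 0.38 ± 0.12 (adjusted p = 0.00652 in edgeR) and without library 4 it was 0.63 (adjusted p = 8.99e-09 in edgeR). In hypoxic osteoblast cultures Rpl14 stood at 774, 794 and 878 CPM against 461, 434 and 491 CPM in hypoxic proliferating cells, a rise of 0.82 ± 0.14 (adjusted p = 1e-05 in edgeR, n = 3 and 3) with no overlap. In chondrocyte cultures it was called lower at both oxygen levels (-0.30 and -0.33). The normoxic call was lost without any 1 of the normoxic proliferating libraries, and the hypoxic one without any 1 of the hypoxic chondrocyte libraries, among others (highest adjusted p = 0.138 and 0.171 in edgeR). Over the 7 groups other than hypoxic smooth muscle, the Pearson correlation of its log2 group means with the mean of the other members was -0.32, where the median of the 77 was 0.97. These correlations are across groups that all members share and are a description only. Over all libraries, the counts of the pseudogene row of Rpl14 came to 42.7% of those of Rpl14 itself, so this pattern is uncertain too.

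**Figure D3:**
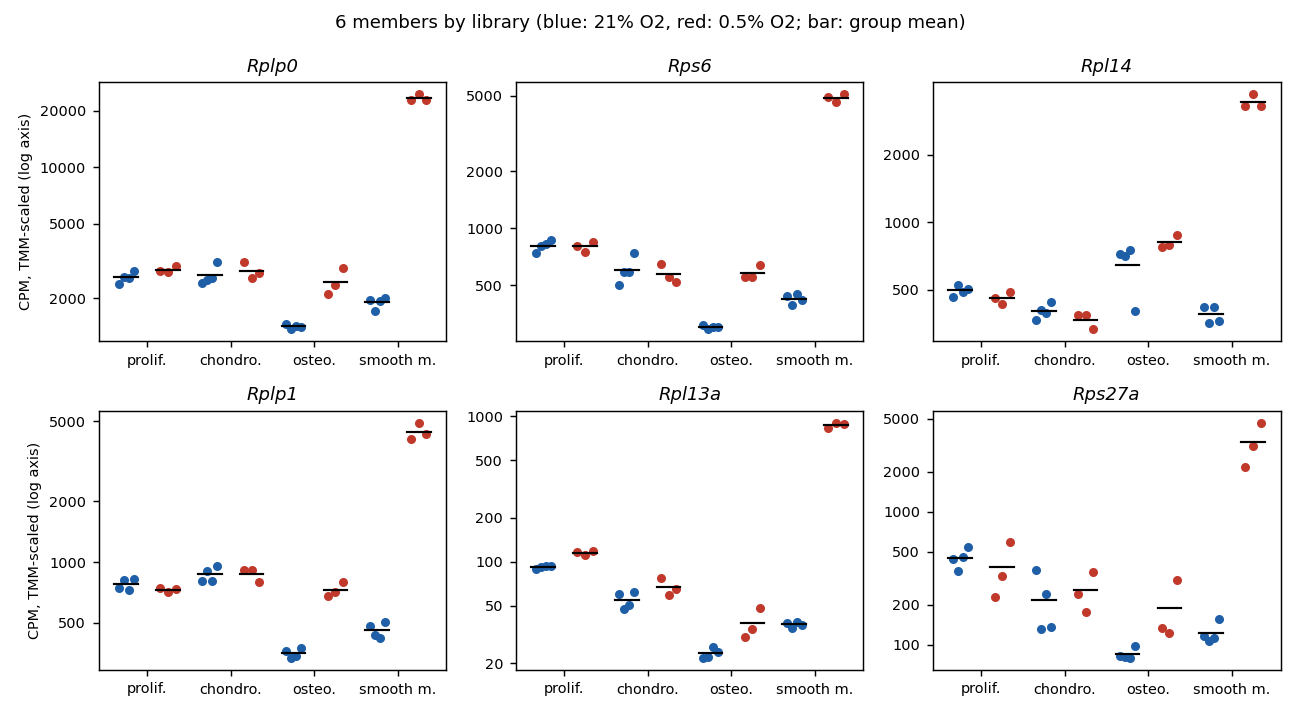
Scaled CPM (y axes, log scale) of 6 members in each library by culture condition (x axes), blue at 21% O2 and red at 0.5% O2, with bars at group means. Rplp0, Rps6, Rplp1, Rpl13a and Rps27a are lowest in normoxic osteoblast cultures, whereas 3 of the 4 normoxic osteoblast libraries of Rpl14 (706 to 756 CPM) lie above its proliferating libraries (467 to 527 CPM).

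Under hypoxia, members called lower than in proliferating cells outnumbered those called higher in chondrocyte and osteoblast cultures, but not in smooth muscle cultures, where all 77 were called higher. In hypoxic chondrocyte cultures 46 members were called lower and 1 higher than in hypoxic proliferating cells, with a median of -0.29, beside 29.2% of genes called lower and 30.2% called higher. In hypoxic osteoblast cultures 63 were called lower and 1 higher, with a median of -0.51, beside 30.5% of genes called lower and 31.5% called higher. Of all members, 41 were called lower in each of the 5 comparisons of a differentiation medium with proliferation other than that of hypoxic smooth muscle, beside 12.5% of all genes. These comparisons share 2 sets of proliferating libraries. Other coding genes of 501 to 1000 bases that reached 100 CPM in hypoxic proliferating cells numbered 55. Their medians were -0.24 in hypoxic chondrocyte and -0.46 in hypoxic osteoblast cultures, close to those of the members. A choice by level in the proliferating libraries favours such falls. Relative to proliferation, the share of counts in chondrocyte cultures was 0.644 under hypoxia and 0.632 under normoxia, and in osteoblast cultures 0.610 and 0.413.
The member called higher in hypoxic chondrocyte cultures was Rplp1, at 907, 913 and 794 CPM against 740, 709 and 734 CPM in proliferating cells, with no overlap and a log2 fold change of 0.26 ± 0.09 (adjusted p = 0.0141 in edgeR). Under scaling by library totals alone its sign turned (-0.08). Among members with separate libraries, Rpl13a, a protein of the large subunit that also joins a complex silencing inflammatory messages, fell most, from 117, 111 and 118 CPM to 77.4, 58.8 and 64.8 CPM in chondrocyte and to 30.5, 34.6 and 48.0 CPM in osteoblast cultures. None of these ranges overlapped. Rpl13a shares 35.4% of its exon bases with other genes on the same strand, so its level is uncertain too. Its log2 fold changes were -0.78 ± 0.12 and -1.61 ± 0.12 (adjusted p = 1.22e-06 and 1.35e-12 in edgeR). Rpl36 was next in chondrocyte cultures (-0.75 ± 0.11), and Rps2, which lies at the entry of the messenger RNA channel, in osteoblast cultures (-0.99 ± 0.12).

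Few members were called between oxygen levels in proliferating and chondrocyte cultures. Between hypoxic and normoxic proliferating cells 2 members were called higher and 4 lower, with a median of 0.03, beside a background of 23.3% of genes called higher and 25.7% called lower. These counts depended on the libraries: without the libraries numbered 4, 24 were higher and 2 lower with a median of 0.15. Without normoxic proliferating library 4 alone, 17 were higher. Without normoxic osteoblast library 4 alone, 12 were higher and 2 lower, and in a fit of only these 2 groups 24 were higher and 4 lower.
Rpl22, an RNA-binding protein of the large subunit that its paralog Rpl22l1 can replace, had the largest called rise. It stood at 389, 379 and 435 CPM in hypoxic and at 262, 290, 282 and 289 CPM in normoxic proliferating cells, with no overlap and a log2 fold change of 0.52 ± 0.08 (adjusted p = 1.59e-06 in edgeR). Rpl22l1, which is no member, fell by 0.38 on the log2 scale in the same comparison and was called. Rpl13a was the other member called higher (0.33). The 4 called lower were Rps10, Rpl30, Rpl8 and Rpl27. With its pseudogene rows added the sign of Rps10 turned (from -0.92 to 0.03), and without the libraries numbered 4 Rpl30 was no longer called (-0.21, adjusted p = 0.161 in edgeR).

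In chondrocyte cultures 8 members were called higher under hypoxia and 0 lower, with a median of 0.13 and 66 of the 77 above 0, beside 8.75% of genes called higher and 9.69% called lower. The members' count upward was close to that background. The largest rises with separate libraries were those of Rpl23 (0.36 ± 0.09, adjusted p = 0.00515 in edgeR) and of Rpl39, which lines the exit tunnel (0.34 ± 0.09, adjusted p = 0.00819 in edgeR). The count was 23 without the libraries numbered 4 and 2 with library totals alone. Leaving out 1 library gave 14 without hypoxic chondrocyte library 2, 5 without hypoxic proliferating library 1, 4 without hypoxic chondrocyte library 3 and 3 without normoxic chondrocyte library 2 or 3. It gave 0 without hypoxic chondrocyte library 1, where Rpl23 gave 0.22 (adjusted p = 0.108 in edgeR) and Rpl39 0.22 (adjusted p = 0.133 in edgeR). The oxygen interaction, the hypoxic change from proliferation minus the normoxic one, was called higher for 5 members and lower for 1 in chondrocyte cultures, beside 18.9% and 15.8% of all genes. Both counts were below that background. The 5 included Rpl8 (0.51 ± 0.13), Rps10 (1.00 ± 0.30) and Rpl38 (0.45 ± 0.16), a protein whose dosage affects skeletal patterning in mice, and the 1 was Rpl22 (-0.29 ± 0.11). With its pseudogene rows added, Rps10 gave 0.06 (adjusted p = 0.803 in edgeR). Rpl38 was not called without the libraries numbered 4 (0.27, adjusted p = 0.0527 in edgeR). Rpl22 was not called when normoxic chondrocyte library 2 or 4, hypoxic chondrocyte library 2 or 3 or hypoxic proliferating library 3 was left out (highest adjusted p = 0.141 in edgeR).

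In osteoblast cultures low oxygen went with higher levels of nearly all members. Of the 77, 72 were called higher and 0 lower in hypoxic than in normoxic cultures, with a median of 0.76 (1.69-fold), beside 27.0% of genes called higher and 27.1% called lower. All 77 log2 fold changes were above 0, and the libraries of 71 of the 72 called members did not overlap, where 24.5% of all genes were called higher without overlap. The count was also 72 without normoxic osteoblast library 4 and without all libraries numbered 4.
Rps6 stood at 557, 556 and 638 CPM in hypoxic osteoblast cultures against 309, 294, 301 and 303 CPM in normoxic ones, a rise of 0.95 ± 0.09 (adjusted p = 1.02e-09 in edgeR, n = 3 and 4). Rplp1 rose from 361, 333, 343 and 376 CPM to 678, 707 and 792 CPM (1.04 ± 0.08, adjusted p = 1.72e-11 in edgeR), with no overlap. Rps27 rose from 177, 133, 187 and 108 CPM to 350, 331 and 368 CPM (1.21 ± 0.18). Rpl17 had the largest fitted rise, 1.41 ± 0.50, and gave 1.14 ± 0.13 with its pseudogene rows added. Without hypoxic osteoblast library 2 its own rows gave 1.00 and were not called (adjusted p = 0.144 in edgeR).

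The members not called in that comparison were Rps10, Rpl24, Rpl7a, Rpl41 and Rps28. With its pseudogene rows added, Rps10 gave 0.88 and was called (adjusted p = 7.17e-08 in edgeR). Rpl41 stood at 811, 664, 745 and 1001 CPM in normoxic and at 916, 971 and 994 CPM in hypoxic osteoblast cultures, overlapping through library 4. Rpl14 gave 0.34 ± 0.13 (adjusted p = 0.0291 in edgeR), 0.16 without the libraries numbered 4 (adjusted p = 0.0691 in edgeR) and 0.21 with its pseudogene rows added (adjusted p = 0.163 in edgeR). The difference between oxygen levels was itself tested: the interaction was called higher for 70 members and lower for 0 in osteoblast cultures, with a median of 0.70, beside 27.0% of all genes called higher and 22.9% called lower. Rps27a had the largest called interaction (1.38 ± 0.55, adjusted p = 0.0422 in edgeR), which was not called without the libraries numbered 4 (1.26, adjusted p = 0.0919 in edgeR).
Markers of cycling cells (Mki67, Top2a, Ccnb1, Cdk1, Mcm2 and Pcna) moved in the same direction as the members in osteoblast cultures. Of the 6, 4 were called higher in hypoxic than in normoxic osteoblast cultures, and their summed level was 271 to 343 CPM against 97.9 to 152 CPM. It was 1472 to 1793 CPM in normoxic proliferating cells, and all 6 were called lower in each of the 3 normoxic differentiations. Between hypoxic and normoxic chondrocyte cultures all 6 were called lower under hypoxia. Summed chondrocyte markers (Col2a1, Acan, Sox9, Col9a1, Matn1 and Col11a2) were also lower there, at 854 to 1280 CPM under hypoxia against 2863 to 8744 CPM under normoxia. Of 6 osteoblast markers (Sp7, Ibsp, Alpl, Bglap, Runx2 and Col1a1), 5 were called higher in hypoxic than in normoxic osteoblast cultures and 0 lower, with sums of 8771 to 11009 CPM against 5720 to 9427 CPM. Chondrocyte cultures had higher sums of these markers, 36039 to 44797 CPM under normoxia and 43327 to 50410 CPM under hypoxia. The summed smooth muscle markers were lower under hypoxia in osteoblast cultures (2160 to 2433 CPM against 3561 to 5101 CPM) and summed neural crest markers (Twist1, Tfap2a, Snai1, Snai2, Sox10 and Ets1) higher (453 to 513 CPM against 316 to 394 CPM). The smooth muscle marker sums of normoxic osteoblast cultures overlapped those of normoxic smooth muscle cultures (3531 to 3991 CPM). In osteoblast cultures chondrocyte markers summed to 593 to 635 CPM under hypoxia and to 184 to 1481 CPM, with a median of 199.5 CPM, under normoxia. The part of the mix of cells in the members' levels was not tested.

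In the libraries labelled hypoxic smooth muscle every member was higher than in either comparison group. Against normoxic smooth muscle cultures 77 were called higher and 0 lower, with a median of 3.87 (14.7-fold), beside 33.5% of genes called higher and 40.0% called lower. Against hypoxic proliferating cells 77 were called higher and 0 lower, with a median of 3.10 (8.57-fold), beside 29.7% of genes called higher and 37.3% called lower. The interaction was called higher for 77 and lower for 0, beside 31.7% and 34.6% of all genes. The members' middle 50% spanned only 3.62 to 4.02 against normoxic smooth muscle, where that of all genes spanned -1.22 to 0.98.
Rplp0 stood at 22789, 24484 and 22775 CPM in these libraries, against 1955, 1717, 1933 and 2020 CPM in normoxic smooth muscle and 2802, 2768 and 2974 CPM in hypoxic proliferating cells. It rose by 3.61 ± 0.10 and 3.04 ± 0.11 (adjusted p = 3.18e-23 and 5.72e-20 in edgeR). Rpl41 stood at 11377, 14206 and 12355 CPM against 868, 725, 775 and 980 CPM (3.92 ± 0.13). Both pairs of groups were far apart.

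The rise was not of 1 size for all members. Rps10 and Rps27a had the largest called rises against normoxic smooth muscle (5.76 ± 0.22 and 4.76 ± 0.43), and Rps10 gave 4.24 ± 0.12 with its pseudogene rows added. Its interaction of 6.68 ± 0.30 became 4.21 in the same way. Against hypoxic proliferating cells Rps10 and Rps27 led (4.52 ± 0.23 and 3.86 ± 0.21), and Rps10 gave 3.38 with its pseudogene rows. At the low end, Rpl24 rose by 1.96 ± 0.78 on counts of 4 to 12 against 0 to 19, and without the libraries numbered 4 it was not called (1.89, adjusted p = 0.0533 in edgeR).
Rps2 had the smallest rise among members with ample counts. It stood at 4439, 6078 and 5042 CPM against 805, 750, 721 and 769 CPM in normoxic smooth muscle, a rise of 2.77 ± 0.12 (adjusted p = 1.03e-18 in edgeR). Against 1600, 1627 and 1678 CPM in hypoxic proliferating cells the rise was 1.67 ± 0.13, the smallest of the 77.

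Several other quantities moved with this rise, and their part in it was not tested. Against normoxic smooth muscle the summed osteoblast markers stood at 350 to 404 CPM against 3732 to 5948 CPM and the chondrocyte markers (Col2a1, Acan, Sox9, Col9a1, Matn1 and Col11a2) at 28.4 to 37.5 CPM against 108 to 136 CPM. The summed markers of cycling cells stood at 457 to 503 CPM against 335 to 394 CPM. Those of neural crest stood at 585 to 652 CPM against 285 to 332 CPM, although 2 of the 5 tested were called higher and 3 lower. These are TMM-scaled levels, and as shares of counts both of the latter lists stood lower in hypoxic smooth muscle, with means of 0.0248% against 0.0457% (cycling cells) and 0.0323% against 0.0385% (neural crest). Beside the mitochondrial ribosomal RNA, the number of genes with a count was 16789 to 17853 in these libraries, and the nuclear 7SK RNA (Rn7sk) took at least 0.0613% of counts, against at most 0.00128% elsewhere. The TMM factors of the 3 libraries were 0.505 to 0.533. With library totals alone the median of all genes against normoxic smooth muscle shifted to -1.47 and that of the members to 2.57. Against hypoxic proliferating cells the same scaling gave -1.29 and 1.94. As a ratio of shares of counts the members stood 5.60-fold above normoxic smooth muscle and 3.67-fold above hypoxic proliferating cells, and by summed TMM-scaled CPM 13.9-fold and 8.18-fold.
Transcript length moved with the change among other genes. Against normoxic smooth muscle, the median log2 fold change of other coding genes was 1.48 for transcripts up to 500 bases (102 genes), 0.83 from 501 to 1000 bases (726 genes), 0.29 from 1001 to 2000, -0.32 from 2001 to 4000 and -0.83 above 4000 bases. Among short transcripts of other genes that reached 100 CPM in normoxic smooth muscle (501 to 1000 bases, 38 genes) the median was 1.04. The 58 members of up to 1000 bases had a median of 3.87, above these classes. Within the 77, the Pearson correlation of log2 fold change with log2 transcript length was -0.09 in this comparison and -0.22 against hypoxic proliferating cells, a description across genes that share the same libraries. For hypoxic against normoxic osteoblast cultures the medians of the 5 length classes lay between -0.04 and 0.02.

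**Figure D4:**
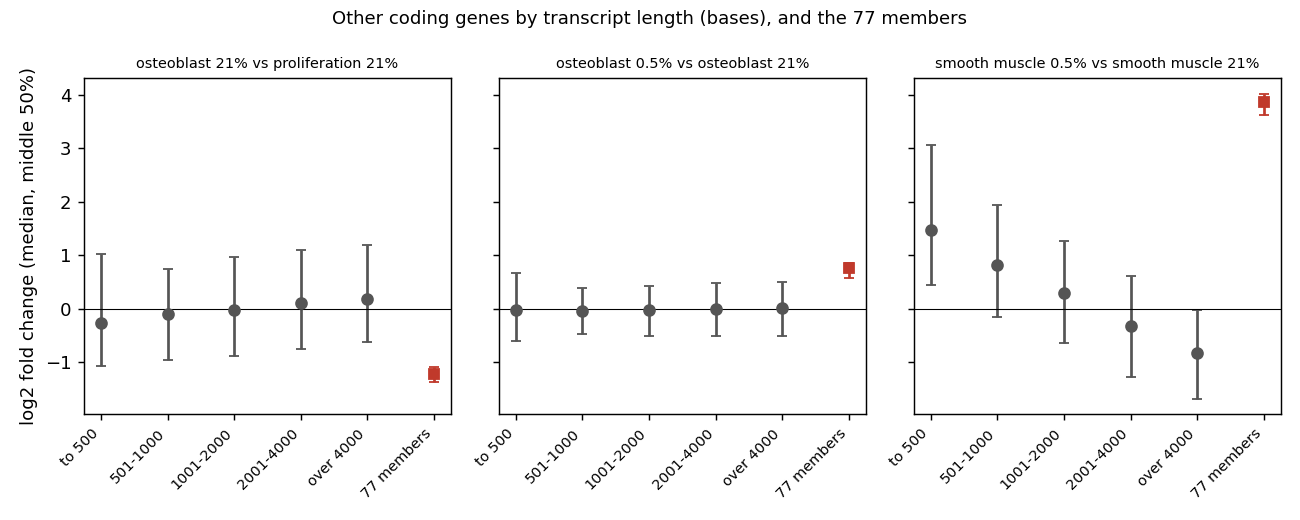
Median log2 fold change (y axis) and middle 50% (bars) of other coding genes in 5 classes of transcript length (x axis, bases) and of the 77 members (red squares) in 3 comparisons. In hypoxic against normoxic smooth muscle cultures the medians run from 1.48 for the shortest class to -0.83 for the longest, with the members at 3.87, while in both osteoblast comparisons the classes stay between -0.26 and 0.18.

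Members with and without the pyrimidine tract at the annotated start had medians close to each other. The start sites used were not measured, so members without a match may still carry the motif. The split therefore cannot separate messages with the motif from those without. In hypoxic against normoxic smooth muscle cultures the median was 3.87 for the 28 members with the tract and 3.90 for the 29 without. In normoxic osteoblast against proliferating cultures the medians were -1.27 and -1.22, and in hypoxic against normoxic osteoblast cultures both were 0.76. The widest gap of the 10 comparisons was that of hypoxic osteoblast against hypoxic proliferating cultures, at -0.61 with the tract and -0.46 without.

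Other genes whose messages carry the TOP motif were called in the members' direction in some comparisons and in both directions in others. Of 18 other genes with TOP messages, among them the elongation factors Eef1a1 and Eef2, 18 were called higher in hypoxic against normoxic smooth muscle (median 2.84) and 17 higher in hypoxic against normoxic osteoblast cultures (0.60). Of all genes, 33.5% and 27.0% were called higher in these 2 comparisons. In normoxic osteoblast against proliferating cultures 17 of the 18 were called lower and 1 higher, beside 35.8% and 37.8% of all genes. In normoxic smooth muscle cultures 11 were called lower and 2 higher, beside 73 and 0 of the members and 35.4% and 35.1% of all genes. Between hypoxic and normoxic proliferating cells 6 were called higher and 5 lower, with a median of -0.12, beside 23.3% and 25.7% of all genes. Their summed level was 31574 to 33513 CPM under normoxia and 37975 to 39855 CPM under hypoxia, with no overlap. The members' sums of 49453 to 56370 CPM and 52292 to 55782 CPM overlapped.

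Genes that build the ribosome differed from the members in proliferating cells. Of 30 ribosome biogenesis genes, which process ribosomal RNA and assemble the subunits, 30 were called lower in hypoxic than in normoxic proliferating cells (median -1.43), where 4 members were. Of all genes, 25.7% were called lower there. Ncl and Fbl, the nucleolar proteins nucleolin and fibrillarin, fell by 1.10 and 0.99 on the log2 scale. Of the 14 genes of the RNA polymerase I machinery tested, 11 were called lower there (median -0.81). In each of the 3 normoxic differentiations all 30 biogenesis genes were called lower, with medians of -1.40 (chondrocyte), -2.13 (osteoblast) and -1.96 (smooth muscle). Of all genes, 34.9%, 35.8% and 35.4% were called lower in these comparisons.
Between hypoxic and normoxic osteoblast cultures 11 biogenesis genes were called higher and 9 lower under hypoxia (median 0.10), beside 72 and 0 of the members. Of all genes, 27.0% were called higher and 27.1% lower there. With library totals alone 5 biogenesis genes were higher and 13 lower (-0.06), where 3539 of all 16540 genes were higher and 5794 lower (median -0.19). In hypoxic smooth muscle against hypoxic proliferating cells 12 biogenesis genes were called higher and 4 lower (median 0.15), beside 29.7% and 37.3% of all genes. With library totals alone 4 were higher and 24 lower (-1.01), where 1933 of all 16540 genes were higher and 10692 lower (median -1.29). Npm1 stands on both the biogenesis list and that of TOP messages.

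Translation initiation factors not among the TOP genes and the proteins of the mitochondrial ribosome were compared in the same way. In normoxic chondrocyte against proliferating cultures their medians were -0.53 and -0.55, beside -0.40 for the members, and in hypoxic against normoxic proliferating cells -0.58 and -0.56, beside 0.03. Of 29 initiation factors, 25 were called lower and 1 higher in normoxic osteoblast against proliferating cultures (median -0.88), beside 35.8% and 37.8% of all genes, and 22 higher and 3 lower in hypoxic against normoxic smooth muscle (0.99), beside 33.5% and 40.0%. Of 79 mitochondrial ribosomal protein genes tested, 66 were called lower and 2 higher in the former comparison (-0.63), and 55 higher and 10 lower in the latter (0.88). The direction in smooth muscle depends on the scaling. With library totals alone 11 initiation factors were higher and 17 lower there (-0.32), and 16 mitochondrial ribosomal protein genes were higher and 47 lower (-0.42). Of the 16540 genes tested, 2198 were higher and 11394 lower with that scaling, with a median of -1.47, so both lists stayed above the median gene. In hypoxic against normoxic osteoblast cultures 16 of the 79 were called higher and 20 lower (median -0.06), both below the 27.0% and 27.1% of all genes. Of 28 genes that control translation or the ribosomal protein genes (mTOR, eIF2 kinase and Myc pathways), 10 were called higher and 10 lower in that comparison, with a median of 0.06 that was -0.09 with library totals alone. Of 6 paralogs of members tested, 2 were called higher and 1 lower there, beside the same 27.0% and 27.1% of all genes. In hypoxic against normoxic smooth muscle 4 were called higher and 1 lower, beside 33.5% and 40.0%.

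**Figure D5:**
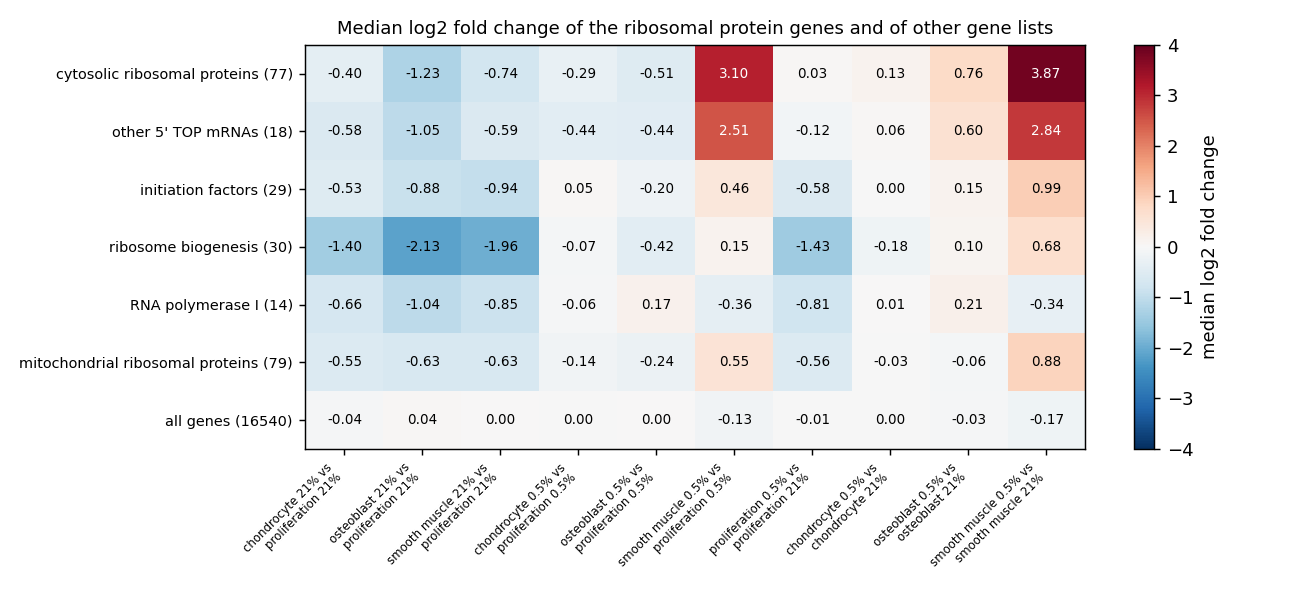
Median log2 fold change (colour and number) of the 77 ribosomal protein genes and of 5 other gene lists and all genes tested (rows, number of genes in brackets) in the 10 pairwise comparisons (columns). The ribosome biogenesis list is lower in hypoxic than in normoxic proliferating cells (-1.43) where the ribosomal protein genes have a median of 0.03, and the ribosomal protein genes reach 3.87 in hypoxic against normoxic smooth muscle cultures where the biogenesis list has 0.68. With library totals alone that 0.68 turns to -0.63, the members' median is 2.57 and that of all genes is -1.47.

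The fold changes in the authors' deposited table of each comparison gave the same signs for 73 to 77 of the 77 members. In the authors' deposited table the median of the members was -1.20 for normoxic osteoblast against proliferating cultures, 0.757 for hypoxic against normoxic osteoblast cultures and 3.94 for hypoxic against normoxic smooth muscle cultures.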

How the data were processed

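Reads were aligned and counted by the authors with HISAT2 2.0.5, StringTie 1.3.3b and featureCounts 1.5.0-p3 on mm10, per the submitters' processing notes; the use of strand and of multiply aligned reads is not given in the sources used here. The deposited table holds raw counts for each Ensembl identifier in 28 libraries, with totals of 19.9 to 64.7 M (M, 1000000). The authors' 10 comparison tables hold log2 fold changes, per the file headers, and 70 columns of normalized single-library values in them were not used.

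Counts were tested with edgeR 4.0.16 (R 4.3.3): TMM scaling, filterByExpr (16540 genes kept), robust quasi-likelihood fit of all 8 groups, 10 pairwise contrasts and 3 interactions, Benjamini-Hochberg adjustment over all genes kept, threshold 0.05. SE is the log2 fold change divided by the square root of F. The fit was tested on simulated data. Lengths and overlaps came from GENCODE vM21 (GRCm38) and start sequences from RefSeq.

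Members and gene lists were chosen with earlier results of these data known. Named members were, per pairwise comparison, the 2 largest called rises and falls with separate libraries, 1 each way per interaction, a set of 25 listed by role, the 3 highest and 3 lowest in level and the 3 least like the others in pattern; further members were named after their values were seen. Alternatives were other scalings, filters, DESeq2 1.42.0, subsets of groups, a replicate block, added pseudogene rows and libraries left out.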

Additional observations from a re-analysis of the deposited data

Results flagged for a closer look

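In 13 of the 148 sets of 4 normoxic libraries examined (shares, sums and levels of named members), 1 library lay far from the other 3. The cutoff gives about 1 in 20 for independent sets of normal values. These sets share libraries and members that move together, so their count cannot be set against that rate. In all 13 it was library 4 of its group, and 8 of the 13 lay in the osteoblast group. There library 4 was lowest for Rpl10 (604 CPM), Rpl14 (401 CPM), Rpl5 (367 CPM) and Rps4x (471 CPM), and highest for Rpl11 (276 CPM), Rpl38 (184 CPM), Rps27a (98.0 CPM) and Rpsa (769 CPM). Library 4 was also highest for Rpl36 in proliferating cells (543 CPM), for Rpl10a (615 CPM) and Rplp2 (355 CPM) in chondrocyte cultures, and for Rpl30 (178 CPM) and Rps28 (331 CPM) in smooth muscle cultures.

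The change from proliferation differed between oxygen levels, by the test of the difference itself (edgeR interaction), for 5 members upward and 1 downward in chondrocyte cultures, below the 18.9% and 15.8% of all genes. It differed for 70 upward in osteoblast (27.0% of all genes) and for 77 upward in smooth muscle cultures (31.7%). The named differences in chondrocyte cultures were 1.00 for Rps10, which gave 0.06 and was not called with its pseudogene rows added, and -0.29 for Rpl22. Rps27a gave 1.38 in osteoblast cultures, and 1.26 and no call without the libraries numbered 4. In smooth muscle cultures Rps10 gave 6.68, and 4.21 with its pseudogene rows.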

How the results depend on the processing

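Of 11867 alternative values of 307 called values of named members, 11579 kept their direction and side of the threshold, 286 kept the direction but not the side, and 2 reversed: Rplp1 in hypoxic chondrocyte against hypoxic proliferating cultures (-0.0779 with library totals alone) and Rps10 in hypoxic against normoxic proliferating cells (0.0278 with pseudogene rows). Of 280 counts of members under alternatives other than leaving out 1 library, 26 moved by over 1.5 times, all of them counts of 8 or fewer. Ranges in brackets leave out each library in turn. Members higher in normoxic chondrocyte cultures numbered 1 with median of ratios scaling, no filter, at least 10 counts in every library, only the groups compared, DESeq2 or without the libraries numbered 4 (0 to 1 leaving out each library). In hypoxic chondrocyte against proliferating cultures 0 were higher with library totals alone and 2 with only the groups compared (0 to 1), and in hypoxic osteoblast against proliferating cultures 2 with only the groups compared. In hypoxic against normoxic proliferating cells the higher count was 5 with median of ratios scaling, 6 with no filter, 12 with at least 10 counts, 24 with only the groups compared, 9 with DESeq2 and 24 without the libraries numbered 4 (2 to 17). The lower count was 2 with no filter and 2 without the libraries numbered 4 (2 to 4). In hypoxic against normoxic chondrocyte cultures 2 were higher with library totals alone, 4 with only the groups compared and 23 without the libraries numbered 4 (0 to 14). The chondrocyte interaction was higher for 2 with library totals alone, no filter or without the libraries numbered 4, and for 3 with median of ratios scaling, at least 10 counts or DESeq2 (2 to 8), and lower for 0 to 1. As TMM-scaled CPM the share was 5.27% in normoxic and 5.40% in hypoxic proliferating, 2.32% in normoxic osteoblast, 3.18% in normoxic and 44.2% in hypoxic smooth muscle cultures. With pseudogene rows it was 2.71% in normoxic osteoblast, 6.57% in hypoxic proliferating and 24.0% in hypoxic smooth muscle cultures, and 26.6% there without mitochondrial genes and Rn7sk. Same-numbered libraries did not deviate together (correlations of -0.057 to 0.081), so the numbers were not taken as pairing; with a replicate block 73 members were higher in hypoxic against normoxic osteoblast cultures and 11 in chondrocyte cultures. For other gene lists, compared with library totals alone after the data were seen, 6 of 10 medians turned sign. In hypoxic against normoxic smooth muscle they were -0.63 (biogenesis), -0.32 (initiation) and -0.42 (mitochondrial ribosome), against hypoxic proliferating cells -1.01 (biogenesis), and in hypoxic against normoxic osteoblast cultures -0.055 (biogenesis) and -0.094 (translation control). The median of all genes shifted the same way with library totals alone. It went from -0.17 to -1.47 in hypoxic against normoxic smooth muscle and from -0.13 to -1.29 against hypoxic proliferating cells. In hypoxic against normoxic osteoblast cultures it went from -0.03 to -0.19. Why the 2 scalings differ was not tested. Depth limits mainly Rpl24 (0 to 48 counts) and Rps10.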
